A study of Mus musculus with 4 samples.

Results

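Heat shock proteins and chaperonins are the proteins that fold new polypeptides and refold damaged ones. Their genes were taken from the gene expression table by symbol: protein-coding genes named as HSP90, HSP70, HSP110, HSP60, HSP10 or small heat shock proteins, as J proteins (Dnaja, Dnajb, Dnajc), as subunits 2 to 8 of the cytosolic chaperonin (Cct), or as the factors Hsf1 and Hsf2. Hspa5, Hspa13, Dnajb9, Dnajb11 and Dnajc3, which act in the endoplasmic reticulum, were left out. Hsp90b1 is also outside the rule, because of its symbol. The rule found 76 genes among the 52636 of the table. It works on symbols, so 8 members act in mitochondria (Hspd1, Hspe1, Hspa9, Dnaja3, Dnajc11, Dnajc15, Dnajc19 and Dnajc30), and some J proteins, such as Dnajc1, Dnajc10 and Dnajb12, belong to the endoplasmic reticulum. Of the 76 members, 53 reached a mean of 1 FPKM over the libraries and were tested, and 23 did not, of which 7 were listed at 0 in all libraries. FPKM is the number of fragments per kilobase of gene, scaled to a fixed library size.

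The cells were mouse Th17 cells, a helper T cell type known for interleukin 17, of the C57BL/6 strain, made in culture from naive cells. The labels set PP2A cKO against PP2A WT, each with 2 libraries, and give no other difference between them. PP2A, a phosphatase of serine and threonine, is built from scaffold, regulatory and catalytic subunits. The labels name neither the subunit removed, nor the Cre driver, nor the age or number of mice. They call the libraries biological replicates without saying whether these came from separate mice. A p-value rests on how far these libraries vary, with variance shared across genes, and that variation may be technical. In both groups, naive cells were cultured with irradiated antigen presenting cells of the same origin at 1 to 3. Antibodies to CD3 and CD28 (each at 2 µg/ml), IL-6 at 20 ng/ml, TGF-β1 at 2 ng/ml and blocking antibodies to IL-4 and IFN-γ (each at 10 µg/ml) were present over 2 days. All cells then received 50 ng/ml PMA and 500 ng/ml ionomycin for 4 h. The series asks whether Th17 differentiation needs PP2A, and the comparison here asks how the chaperone genes stood in cKO against WT.

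The cytosolic chaperones form a relay. J proteins deliver unfolded clients to HSP70 and start its ATPase, HSP110 exchanges the nucleotide, HSP90 finishes many kinases and steroid receptors, and the barrel-shaped chaperonin folds actin and tubulin. HSF1 is held inactive by chaperones and, when proteins unfold, forms trimers that bind heat shock elements, inverted repeats of the unit GAA, in the promoters of the inducible genes. Activated T cells make much protein and carry high levels of the constitutive chaperones.

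The promoters of 5 members are shown because they hold such repeats and belong to genes the results turn on, the inducible HSP70 pair, the mitochondrial HSP10 gene, the HSP110 gene and a chaperonin subunit. RefSeq windows (GRCm38.p6; 250 bases before to 50 after each RNA start) were matched by symbol for 61 of the 76 members, giving 80 windows. Only bases before the RNA start that overlap no GENCODE M21 exon are printed, 5′ to 3′ on the strand of the gene, with matches to GAANNTTC or TTCNNGAA in capitals. Hspa1b (chr17:34959239-34959488, minus strand) and Hspa1a (chr17:34972157-34972406, minus strand) differ at 3 of 250 bases (98.8% identical), and both hold the same match, which begins 104 bases before the RNA start. The Hspe1 sequence (chr1:55088025-55088131, plus strand) lies inside the bounds of Hspd1, which runs the other way, and its 3 overlapping matches make a run of 4 alternating units. Hsph1 is at chr5:149636339-149636586 and Cct2 at chr10:117063376-117063625, both on the minus strand, with a match 33 and 42 bases before the RNA start. The listed bounds of these genes reach 149636376 for Hsph1 and 117063814 for Cct2. The Hsph1 match and all of the Cct2 sequence thus lie inside the bounds of their own gene. The annotation release behind these bounds is not given and may differ from GENCODE M21, so by the listed bounds the Hsph1 match may be transcribed.
Hspa1b: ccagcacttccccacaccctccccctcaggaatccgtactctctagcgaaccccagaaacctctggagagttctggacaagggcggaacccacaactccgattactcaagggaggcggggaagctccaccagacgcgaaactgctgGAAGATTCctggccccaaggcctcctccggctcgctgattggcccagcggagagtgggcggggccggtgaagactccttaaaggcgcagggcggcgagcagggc
Hspa1a: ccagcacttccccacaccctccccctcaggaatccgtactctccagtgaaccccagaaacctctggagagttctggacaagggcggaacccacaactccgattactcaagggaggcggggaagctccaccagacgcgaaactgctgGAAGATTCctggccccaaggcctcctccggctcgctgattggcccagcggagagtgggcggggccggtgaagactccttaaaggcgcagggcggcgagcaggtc
Hspe1: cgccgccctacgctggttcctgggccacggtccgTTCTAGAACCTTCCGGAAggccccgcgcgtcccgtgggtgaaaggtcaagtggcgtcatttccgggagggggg
Hsph1: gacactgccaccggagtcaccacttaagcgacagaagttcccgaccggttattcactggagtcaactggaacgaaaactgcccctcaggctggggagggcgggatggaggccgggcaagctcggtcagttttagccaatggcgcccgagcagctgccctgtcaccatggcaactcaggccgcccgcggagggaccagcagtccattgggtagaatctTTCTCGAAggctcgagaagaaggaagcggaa
Cct2: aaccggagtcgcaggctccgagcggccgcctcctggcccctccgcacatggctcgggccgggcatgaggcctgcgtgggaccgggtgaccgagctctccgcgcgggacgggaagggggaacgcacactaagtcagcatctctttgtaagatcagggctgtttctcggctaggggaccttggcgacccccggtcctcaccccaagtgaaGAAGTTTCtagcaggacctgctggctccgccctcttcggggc

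GAANNTTC and TTCNNGAA each read the same on both strands. GAANNTTC was in 22.5% of the 80 member windows and in 7.86% of all 32851 windows of that length, and TTCNNGAA in 11.25% and 8.52%. A run of 3 units (GAANNTTCNNGAA or its reverse complement TTCNNGAANNTTC) contains the shorter motifs. It was in 7.5% of member windows, those of Hspd1, Hspe1, Dnajb6 and Hsph1, and in 0.603% of all windows. These were 6 windows of 4 genes, and GAANNTTC was in 18 windows of 16 genes. Windows of the same gene and of near-copies such as Hspa1a and Hspa1b are counted separately, so the percentages are not of independent promoters. The run of Hsph1 is not in the bases printed above, which hold 1 short match. Among tested members with a window, the 12 that held either short motif had a median log2 fold change of 0.08 (cKO minus WT, from -0.31 for Hsph1 to 0.32 for Hspa1b), and the 29 that held neither had 0.01.

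Between 18517487 and 20387948 reads per library were assigned to genes. T cell marker genes (8 genes) summed to 1312 and 1360 FPKM in WT and to 1529 and 1672 FPKM in cKO. Of these, 5 were higher and 2 lower without overlap (all tested genes: 27.2% and 28.7%), and none passed. Cd5 had 378 and 318 FPKM in WT and 561 and 675 FPKM in cKO. Zap70 went the other way, with 264 and 257 FPKM in WT and 156 and 184 FPKM in cKO. All 5 tested Th17 marker genes had both cKO values under both WT values, as 28.7% of all tested genes did, and none passed. The 7 B cell markers summed to 0.415 and 0.663 FPKM in WT and 0.558 and 0.732 FPKM in cKO, and the 9 myeloid and dendritic markers to 0.600 and 0.924 FPKM in WT and 0.357 and 0.559 FPKM in cKO, with Clec9a at 0 throughout and Cd14 making up most of the WT sum. Ppp2ca, the main catalytic gene of PP2A, had 42.2 and 50.1 FPKM in WT and 41.8 and 34.5 FPKM in cKO (limma, adjusted p = 0.36), so the gene totals do not check the genotype labels. The cKO libraries differed from each other along transcript GC content (Spearman's rho = -0.529 over all tested genes), which touches the results below.

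Across the 53 tested members the chaperone programme stood at nearly the same level in both genotypes. Of the reads assigned to genes, members took 1.90% and 1.93% in WT and 1.95% and 1.86% in cKO. Roles within this sum differed. HSP70 and HSP110 genes took 0.479% and 0.493% in WT and 0.451% and 0.453% in cKO, and the heat shock factors were also lower. Chaperonin members took 0.343% and 0.342% in WT and 0.359% and 0.343% in cKO, and the shares of the other roles overlapped. No member passed the test (limma on log2(FPKM + 1), adjusted p under 0.05; lowest adjusted p = 0.137, for Hsf2), where 1.07% of all 10562 tested genes did, 0.814% as higher and 0.256% as lower. At an unadjusted p under 0.05, 2 members were higher and 6 lower in cKO, which is 15.1% of members against 19.8% of all genes (9.56% higher, 10.3% lower). No member passed by limma voom on the recovered reads, where 5.18% of all genes did, nor in these other settings. The share of all genes that passed there was 0.767% with a pseudocount of 0.1, 0% without a filter, 1.39% with a 5 FPKM filter, 0.207% under TPM and 1.1% with median-of-ratios scaling. It was 0.956% without the variance trend, 2.15% with the replicate number as a block, 2.31% with that block and a GC correction, and 0.72% and 0.521% without WT replicate 1 and 2. The median log2 fold change of members was 0.03, with 34 above 0 and 19 under 0, and -0.00337 over all tested genes. Their absolute log2 fold change had a median of 0.13, against 0.16 for all genes.

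The intervals show how large a change the data still allow. For 43 of the 53 members the 95% interval of the fitted change lay within 1.5-fold in either direction, and for all 53 within 2-fold, on the log2(FPKM + 1) scale that compresses low genes. Both cKO values lay outside the WT range in the same direction for 25 members (14 higher, 11 lower), or 47.2%, against 55.9% of all tested genes (27.2% higher, 28.7% lower). In the plot of levels by library the 4 points of most genes fall on top of each other over a range from 1.01 FPKM (Dnajc12) to 1695 FPKM (Hsp90ab1).

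**Figure D1:**
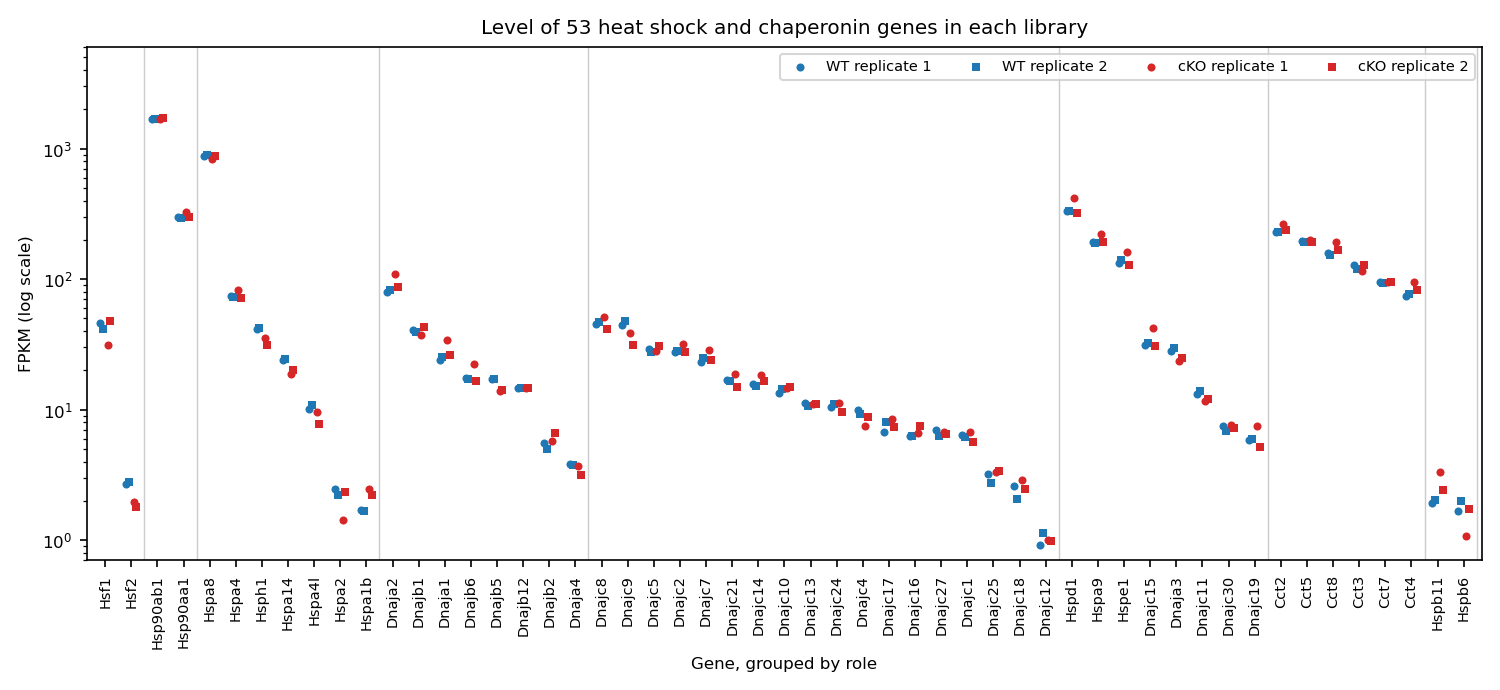
FPKM (y axis, log scale) of the 53 tested members (x axis, grouped by role and ordered by mean level) in each library, with blue points for WT and red for cKO and circles and squares for replicates 1 and 2. Hsp90ab1 and Hspa8 stand above all others, and for Hsf1, Dnaja1 and Hspd1 the point of cKO replicate 1 stands apart from the other libraries.

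Of the heat shock factors, Hsf1 was well expressed and Hsf2 low. Hsf1, the main sensor of unfolded protein (chromosome 15, 76477445 to 76500972 of GRCm38), was at 45.8 and 41.7 FPKM in WT and 31.3 and 48.1 FPKM in cKO. The cKO libraries thus lay on opposite sides of WT, and the log2 fold change of -0.17 ± 0.21 (SE) had an interval from -0.71 to 0.37 (limma, adjusted p = 0.675). Hsf2, a paralogue active in development and differentiation (chromosome 10, 57486385 to 57513135), had 2.68 and 2.80 FPKM in WT and 1.95 and 1.79 FPKM in cKO. The cKO values did not overlap the WT values, on 503 and 514 reads in WT and 381 and 334 in cKO. Means were 2.74 ± 0.0882 FPKM for WT and 1.87 ± 0.113 FPKM for cKO (SD, n = 2). The log2 fold change, -0.38 ± 0.10, did not pass (limma, adjusted p = 0.137). The log2(FPKM + 1) scale compresses a gene this low, and the FPKM means stood at 0.684-fold. By limma voom on the reads the log2 fold change was -0.55 ± 0.12 (adjusted p = 0.0518). With protein-coding genes only it was -0.56 ± 0.11 (limma, adjusted p = 0.0525), so both lay just over the threshold. Without any one library in turn, the log2 fold change of Hsf1 ran from -0.47 to 0.14. Both ends of that range come from fits that hold a single cKO library.

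The HSP90 genes were among the most abundant members and stood at similar levels in both groups. Hsp90ab1, the constitutive cytosolic HSP90 (chromosome 17, 45567775 to 45573271), had 1675 and 1683 FPKM in WT and 1697 and 1725 FPKM in cKO. The cKO values lay just above the WT values, by 1.90% in the mean, and the log2 fold change was 0.03 ± 0.10 with an interval of 0.848- to 1.22-fold (limma, adjusted p = 0.899). Hsp90aa1, the stress-inducible form, had 299 and 294 FPKM in WT and 328 and 297 FPKM in cKO, and its groups overlapped (log2 fold change 0.07 ± 0.11, limma, adjusted p = 0.716). Per length, Hsp90ab1 exceeded Hsp90aa1 5.61- and 5.72-fold in WT and 5.18- and 5.80-fold in cKO. Under TPM or protein-coding scaling both signs turned, with log2 fold changes of -0.07 and -0.02 under TPM.

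Among the HSP70 and HSP110 genes the constitutive form dominated and the inducible pair was low. Hspa8, the constitutive HSC70 (chromosome 9, 40800984 to 40810087), had 883 and 890.1 FPKM in WT and 839 and 869.7 FPKM in cKO. Both cKO values were lower, and the mean changed by -3.62% (log2 fold change -0.05 ± 0.10, limma, adjusted p = 0.787). Hspa4, an HSP110-type nucleotide exchange factor, had 73.8 and 73.4 FPKM in WT and 82.1 and 72.2 FPKM in cKO, and the groups overlapped.

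Hspa1b and Hspa1a, the heat-inducible HSP70 genes whose promoters are printed above, were low in all libraries. Hspa1b (chromosome 17, 34956436 to 34959238) had 1.70 and 1.66 FPKM in WT and 2.48 and 2.23 FPKM in cKO, from 93, 89, 141 and 121 reads. Both cKO values were above both WT values, and the log2 fold change of 0.32 ± 0.11, with an interval of 1.04- to 1.51-fold on the log2(FPKM + 1) scale, did not pass (limma, adjusted p = 0.195). That scale compresses a gene this low: the FPKM means stood at 1.40-fold, and limma voom on the reads gave a log2 fold change of 0.49 ± 0.18 (adjusted p = 0.187). Hspa1a (chromosome 17, 34969190 to 34972156) was under the filter, with 27 and 23 reads in WT and 35 and 63 reads in cKO. Because the genes are close copies, reads may be split or lost between them by the counting, and their sum is the safer value. The sum was 6.20 and 6.05 reads per 1000000 assigned reads in WT and 8.63 and 9.43 in cKO, higher in both cKO libraries, and an exact permutation test of 2 against 2 cannot give a two-sided p under 0.333. Hspa8 exceeded Hspa1b per length 521- and 536-fold in WT and 339- and 391-fold in cKO.

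Other HSP70-type genes had lower values in both cKO libraries without passing. Hsph1, which encodes HSP110 (chromosome 5, 149614287 to 149636376), had 41.1 and 42.2 FPKM in WT and 35.5 and 31.5 FPKM in cKO. Hspa14, a ribosome-associated HSP70, had 23.8 and 24.5 FPKM in WT and 18.6 and 20.1 FPKM in cKO, and it overlaps the predicted gene Gm45902 on the same strand, which had a mean of 2.05 FPKM. For both genes the cKO values lay under the WT values, with log2 fold changes of -0.31 ± 0.10 and -0.31 ± 0.09 that did not pass (limma, adjusted p = 0.198 and 0.167). Hspa4l had 10.05 and 10.9 FPKM in WT and 9.63 and 7.80 FPKM in cKO, also without overlap, while Hspa2 overlapped. The 7 tested genes of this role had a median log2 fold change of -0.23, with 1 gene higher and 4 lower without overlap (all tested genes: 27.2% and 28.7%).

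Class A and B J proteins are the general partners of HSP70. Dnaja2 had 79.5 and 81.9 FPKM in WT and 109 and 87.2 FPKM in cKO, and Dnaja1 had 24.2 and 25.2 FPKM in WT and 34.4 and 26.2 FPKM in cKO. For both, cKO replicate 1 was far above WT and cKO replicate 2 only slightly, giving a log2 fold change of 0.27 ± 0.14 and 0.27 ± 0.15 (limma, adjusted p = 0.339 and 0.365). Without cKO replicate 1 these became 0.11 and 0.08. Leaving out cKO replicate 2 instead gave 0.43 and 0.46. Each of these fits holds a single cKO library and so no spread of cKO. Dnaja1 shares 608 bases with Smu1 on the other strand.

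Dnajb1, the inducible HSP40 and a sensitive target of HSF1, had 41.1 and 39.2 FPKM in WT and 37.5 and 43.3 FPKM in cKO. The WT values lay between the cKO values, and the means were 40.1 ± 1.33 and 40.4 ± 4.10 FPKM (SD, n = 2; log2 fold change 0.01 ± 0.11, limma, adjusted p = 0.975). Its sign turned under 4 alternatives. Dnajb6, a suppressor of aggregation, had 17.5 and 17.3 FPKM in WT and 22.5 and 16.7 FPKM in cKO. Dnajb5 had 17.3 and 17.1 FPKM in WT and 13.996 and 14.3 FPKM in cKO, lower in both cKO libraries without passing (log2 fold change -0.26 ± 0.08, limma, adjusted p = 0.184). Dnajb12 hardly differed, with 14.8 and 14.6 FPKM in WT and 14.5 and 14.7 FPKM in cKO.

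Class C J proteins serve special sites such as the ribosome, the spliceosome or endosomes. Of 18 tested, 4 were higher and 2 lower in both cKO libraries (all tested genes: 27.2% and 28.7%), and the median log2 fold change was 0.03. Dnajc9, a histone chaperone (chromosome 14, 20384638 to 20388910), had 44.6 and 47.4 FPKM in WT and 38.6 and 31.4 FPKM in cKO. Means were 45.98 ± 1.99 FPKM for WT and 34.98 ± 5.05 FPKM for cKO (SD, n = 2). The log2 fold change, -0.39 ± 0.13, did not pass (limma, adjusted p = 0.195). Without cKO replicate 1, which leaves a single cKO library, the log2 fold change was -0.53. Dnajc7, a co-chaperone that binds HSP70 and HSP90, had 23.1 and 24.8 FPKM in WT and 28.7 and 24.2 FPKM in cKO, and it overlaps Cnp and Nkiras2. Dnajc13, which acts on endosomes, had 11.3 and 10.6 FPKM in WT and 11.0 and 11.1 FPKM in cKO.

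**Figure D2:**
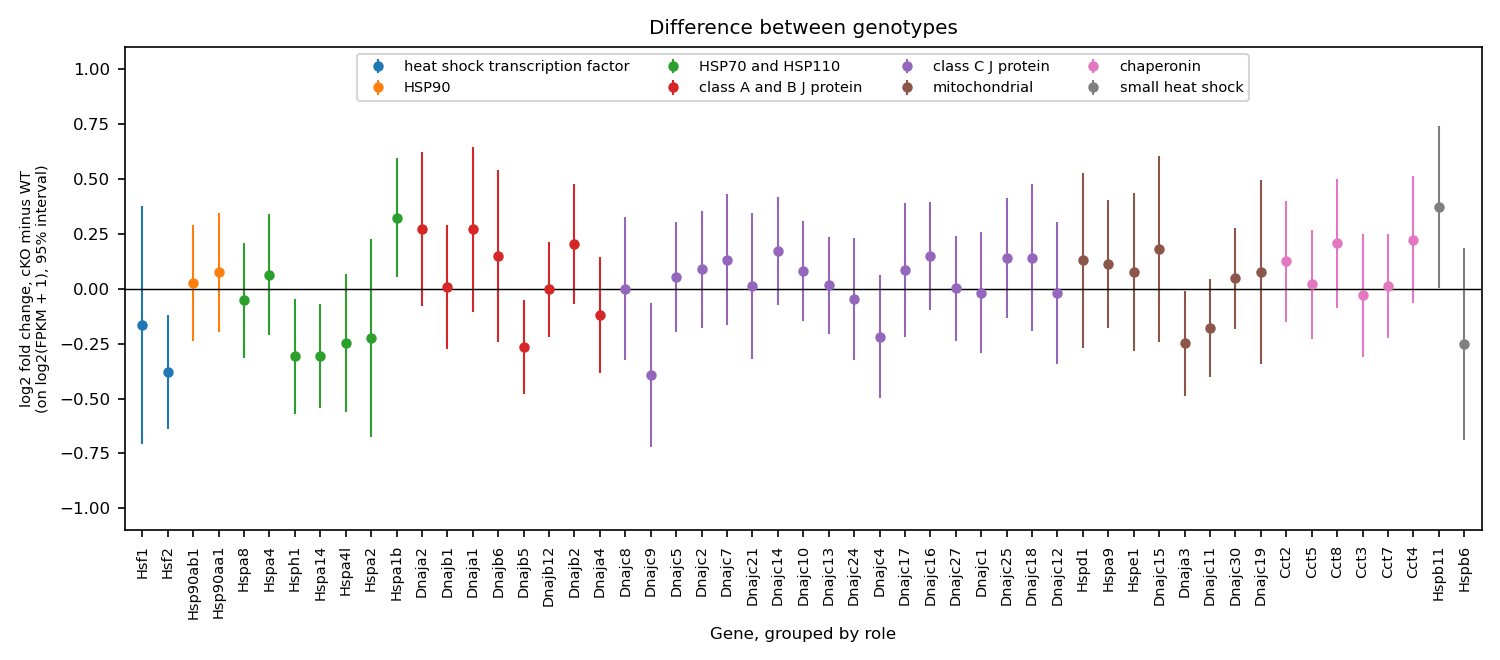
Log2 fold change of each tested member (y axis, cKO minus WT on log2(FPKM + 1)) with its 95% interval from the limma fit, grouped by role (x axis, colours). All intervals stay within 1 log2 unit of 0, and the fold changes run from -0.39 for Dnajc9 to 0.37 for Hspb11 on this scale; other scales order the genes differently, with Hsf2 at -0.55 and Dnajc9 at -0.40 by voom.

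Among the mitochondrial chaperones the cKO libraries differed from each other. Hspd1 and Hspe1 encode HSP60 and its lid HSP10 and lie head to head on chromosome 1 (55077835 to 55088243 and 55088132 to 55091307), with 112 bases in common. The sequence printed above for Hspe1 lies within Hspd1. Hspd1 had 335 and 335 FPKM in WT and 419.9 and 319 FPKM in cKO. Hspe1 had 132 and 141 FPKM in WT and 161 and 128 FPKM in cKO. Both genes were above WT in cKO replicate 1 and under WT in cKO replicate 2, with log2 fold changes of 0.13 ± 0.16 and 0.07 ± 0.14 (limma, adjusted p = 0.657 and 0.785). Their ratio moved little, at 2.54 and 2.38 in WT and 2.61 and 2.49 in cKO.

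Hspa9, the mitochondrial HSP70, had 192 and 188 FPKM in WT and 220.0 and 191 FPKM in cKO (log2 fold change 0.11 ± 0.11, limma, adjusted p = 0.606). Dnaja3, its J protein partner, went the other way, with 28.1 and 29.8 FPKM in WT and 23.5 and 24.9 FPKM in cKO, lower in both cKO libraries (-0.25 ± 0.09, limma, adjusted p = 0.238). It overlaps Coro7 on the other strand and Vasn on its own. Over the 8 genes of this role the median difference from the WT mean was 0.22 in cKO replicate 1 and -0.08 in cKO replicate 2.

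The cytosolic chaperonin is a ring of 8 different subunits needed in equal number. Besides Cct2, Cct3, Cct4, Cct5, Cct7 and Cct8, which are members, it holds Tcp1 and Cct6a, which are outside the rule because of the symbol of Tcp1 and because the table types Cct6a as a processed transcript. Cct4 had 74.9 and 76.8 FPKM in WT and 95.5 and 82.4 FPKM in cKO, and Cct8 had 157 and 153 FPKM in WT and 193 and 167 FPKM in cKO. Cct2 had 228 and 228 FPKM in WT and 263 and 236 FPKM in cKO. For these subunits both cKO values lay above both WT values, with cKO replicate 1 the higher, and the log2 fold changes of 0.22 ± 0.11, 0.21 ± 0.12 and 0.12 ± 0.11 did not pass (limma, adjusted p = 0.343, 0.374 and 0.539).

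The remaining subunits stayed close to WT. Cct5 had 195 and 192 FPKM in WT and 201 and 192 FPKM in cKO. Cct7 had 94.4 and 93.5 FPKM in WT and 94.6 and 94.7 FPKM in cKO. Cct3 had 128 and 119 FPKM in WT and 115 and 127 FPKM in cKO, so the signs of these 3 subunits, which turned in some alternatives, carry no direction. Tcp1 had 95.2 and 94.96 FPKM in WT and 101.2 and 96.3 FPKM in cKO, and Cct6a had 114 and 110.4 FPKM in WT and 121 and 113 FPKM in cKO (limma, adjusted p = 0.769 and 0.766). The mean over the 8 subunits was 136 and 134 FPKM in WT and 148 and 139 FPKM in cKO. The highest exceeded the lowest 3.05- and 2.97-fold in WT and 2.78- and 2.87-fold in cKO, per the gene lengths of the table, which reach 6778 bases for Cct7 and 2557 for Cct2.

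The small heat shock genes were almost silent. Of 8 members, Hspb2, Hspb3 and Hspb8 had no read in any library, which allows up to 3 reads in each, and Hspb1, the heat-inducible HSP27, had 1 read in each of 2 libraries. Hspb11, which despite its symbol encodes an intraflagellar transport protein, had 1.92 and 2.02 FPKM in WT and 3.33 and 2.42 FPKM in cKO, from 78, 80, 140 and 97 reads. Both cKO values were higher, and its log2 fold change of 0.37 ± 0.14 did not pass (limma, adjusted p = 0.249). Hspb6, which had 1.67 and 2.00 FPKM in WT and 1.07 and 1.73 FPKM in cKO, shares 3 bases with the more abundant Lin37.

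Hspb9 was under the filter, with 9 and 6 reads in WT and 2 and 1 reads in cKO. The cKO to WT ratio of reads per 1000000 assigned reads was 0.190, with an exact 95% interval from 0.0352 to 0.671 that covers counting error only. It was the member called lower with protein-coding genes only (limma, log2 fold change -1.07, adjusted p = 0.0416), a setting that admitted 59 members and called 5.23% of all genes, 3.17% as lower. The other members under the filter with at least 100 reads in every WT library were Dnajb14, with 153 and 165 reads in WT and 231 and 186 in cKO, and Dnajb4, with 106 and 100 reads in WT and 119 and 80 in cKO. Dnajc22, Dnajc5b, Dnajc5g and Cct8l1 were listed at 0 as well.

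Some members changed direction with the choice of cKO library. The log2 difference between the cKO libraries had an SD of 0.23 over the 53 members, and that between the WT libraries 0.09. Over all tested genes these SDs were 0.304 and 0.209. Against the WT mean, 34 members were higher in cKO replicate 1 and 27 in cKO replicate 2, and for 19 members the cKO libraries lay on opposite sides of WT. These counts were not made over all tested genes, so they do not set the members apart from other genes. The member median was 0.07 in cKO replicate 1 and 0.00280 in cKO replicate 2. Over the members, the difference between the cKO libraries followed transcript GC content (Spearman's rho = -0.57, n = 53 genes, which share the libraries), while rho was 0.27 for the WT libraries.

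For the 9 members under 44% GC, the median difference from WT was 0.18 in cKO replicate 1 and -0.00388 in cKO replicate 2. Of these, Dnaja1, Dnaja2, Cct8, Hsp90aa1, Dnajc2, Dnajc19 and Dnajc21 lay above WT in cKO replicate 1. Hsf2 (-0.34) and Hspa4l (-0.11), the members of lowest GC, lay below. For the 18 members of at least 50% GC, the median was 0.00181 and 0.00408. Among these, Hsf1 (-0.47) and Dnajb1 (-0.09) lay below WT in cKO replicate 1, while Hspa1b (0.38), Dnajb6 (0.35) and Dnajc7 (0.25) lay above. Without cKO replicate 2, 10 members passed as higher and 4 as lower, 26.4% of members against 28.4% of all genes (13.2% higher, 15.3% lower). The higher members were Hspd1, Hspa9, Cct2, Cct4, Cct8, Dnaja1, Dnaja2, Dnajb6, Dnajc15 and Hspb11, and the lower Hsf1, Dnaja3, Hspa14 and Dnajb5. The fit without cKO replicate 2 holds a single cKO library, so these calls carry no spread of cKO. The part of GC content in these differences was not tested gene by gene, and with a GC correction no member passed, where 4.81% of all genes did.

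**Figure D3:**
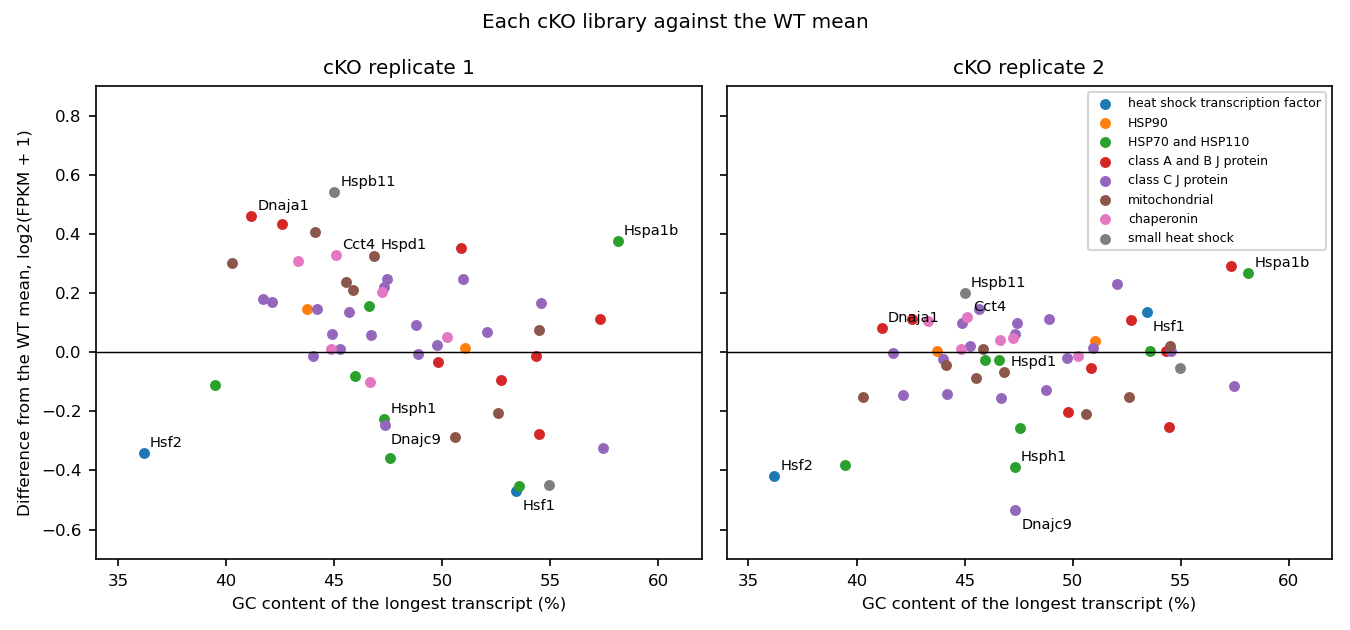
Difference of each tested member from the WT mean on log2(FPKM + 1) (y axis) against the GC content of its longest transcript (x axis, percent), for cKO replicate 1 and cKO replicate 2, coloured by role. In replicate 1 Dnaja1 lies far above 0 and Hsf1 far below, while in replicate 2 Dnaja1 is near 0 and Hsf1 is above 0; Hsf2, Dnajc9 and Hsph1 lie below and Hspa1b and Hspb11 above in both.

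Genes of partners outside the rule were counted in the same way. Of 27 co-chaperone genes none passed, against 1.07% of all tested genes. Both cKO values lay above both WT values for 6 and below for 7, where all tested genes gave 27.2% and 28.7%, and the median log2 fold change was -0.02. Fkbp4, an HSP90-bound immunophilin, had 104 and 100.7 FPKM in WT and 77.2 and 73.4 FPKM in cKO. Bag2, an inhibitor of the ubiquitin ligase CHIP, had 2.02 and 2.45 FPKM in WT and 1.14 and 1.03 FPKM in cKO. Sugt1, an HSP90 partner at the kinetochore, had 29.3 and 30.4 FPKM in WT and 45.5 and 38.5 FPKM in cKO. These were the 3 largest changes of that list, with log2 fold changes of -0.44, -0.63 and 0.47 (limma, adjusted p = 0.0979, 0.0812 and 0.117).

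Of 15 tested genes in a list of prefoldin and chaperonin helpers, none passed, with 6 higher and 1 lower without overlap (all tested genes: 27.2% and 28.7%) and a median of 0.15. The list also holds Tcp1, itself a subunit of the chaperonin. Pfdn2 had 45.0 and 46.2 FPKM in WT and 76.9 and 49.2 FPKM in cKO, Pdcl 9.48 and 10.2 in WT and 14.5 and 11.9 in cKO, and Txndc9 7.29 and 6.61 in WT and 10.1 and 7.81 in cKO. Again cKO replicate 1 was the higher. Of 17 tested targets of heat shock factors outside the rule, several of which are also co-chaperones, none passed, with 5 higher and 5 lower without overlap (all tested genes: 27.2% and 28.7%) and a median of 0.03. Its largest changes beside Fkbp4 were those of Mthfd1 (log2 fold change -0.41, limma, adjusted p = 0.101) and Ier5 (0.33, limma, adjusted p = 0.301). Ubb, a polyubiquitin gene that heat induces, had 414 and 448 FPKM in WT and 365 and 457 FPKM in cKO.

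Of 14 genes of mitochondrial protein quality control none passed, with 2 higher and 5 lower without overlap (all tested genes: 27.2% and 28.7%) and a median of -0.01. Htra2, a protease of the intermembrane space, had 12.1 and 13.2 FPKM in WT and 7.95 and 9.50 FPKM in cKO. Lonp1, the main matrix protease, had 60.2 and 58.2 FPKM in WT and 42.5 and 49.2 FPKM in cKO. Both lay lower in both cKO libraries, with log2 fold changes of -0.49 and -0.37, and Hspbap1, a partner of HSP27 that the list also holds, had 0.29 (limma, adjusted p = 0.108, 0.171 and 0.169).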

How the data were processed

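RNA was measured in 2 PP2A WT and 2 PP2A cKO libraries of mouse Th17 cells. The authors deposited FPKM values per gene beside each gene's length. Per the submitters' processing notes, the tools include featureCounts 1.5.0-p3 and the genome is GRCm38, also written mm10. For the aligner, annotation release, strand setting and FPKM tool, the answer is not given in the sources used here. The 16 tested members that overlap another gene of at least 1 FPKM cannot be told apart from it fully. For overlaps on opposite strands the reason is the unknown strand setting. Hspa14, Dnajc14, Dnaja3 and Hspa9 also overlap a gene on their own strand, which that setting would not resolve. Multiplying FPKM by length gave whole multiples of a fixed step (100% of nonzero values, tolerance 0.01 read), from which reads were recovered.

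limma 3.58.1 in R 4.3.3 compared cKO minus WT on log2(FPKM + 1), pseudocount 1, over the 10562 genes whose mean reached 1 FPKM, with a variance trend, two-sided, Benjamini-Hochberg adjustment over all genes at 0.05 and no block. With 2 libraries a group the fit has 2 residual degrees of freedom, so tests rest on variance shared across genes. The members and lists were chosen with earlier results of these data known. Named members are the 6 highest and 6 lowest log2 fold changes, any past the threshold and a fixed set by role, and the text adds others chosen after their values were seen. From each list come up to 3 genes with the largest change, and Ubb was added. GC content is that of the longest GENCODE M21 transcript. The procedure was also run on simulated reads with a fixed spread and no GC difference between libraries. These data differ in that respect, so the run does not show how large a change could be detected here. Alternatives were other pseudocounts, filters, scalings, variance models, voom, a GC correction, a replicate block and the omission of each library. An omission leaves a single library in its group, so the tests there carry no spread for that group.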

Additional observations from a re-analysis of the deposited data

How the results depend on the processing

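No member passed with a pseudocount of 0.1, with no filter or a 5 FPKM filter, under TPM or median-of-ratios scaling, without the variance trend, by voom, or with a GC correction, a replicate block or both. With protein-coding genes only, 1 was lower. Over the omissions of a library, 0 to 10 members were higher and 0 to 4 lower. The member median was -0.0523 under TPM and -0.0608 with protein-coding genes only, and ran from 0.0028 to 0.0671 over the omissions. Over all genes, 86 were higher and 27 lower. The counts were 66 and 15 with a pseudocount of 0.1, 0 and 0 without a filter, 25 and 1 under TPM, 214 and 330 with protein-coding genes only, 284 and 263 by voom, and 251 and 257 after a GC correction. With the replicate block they were 154 and 73, and 151 and 93 with GC correction and replicate block. Over all tested genes, the difference between replicates in WT and that in cKO had r = -0.093. Each group gives a single such difference, so this value cannot tell whether same-numbered libraries share more than a number. Over the omissions, 49 to 1390 genes were higher and 6 to 1614 lower. The cause was not tested. Of 430 values of 29 named genes, 389 kept sign and side of the threshold, 14 passed newly and 27 turned sign, all of genes within 0.17 of 0 (log2). Under TPM these were Cct5 -0.0739, Cct6a -0.0361, Cct7 -0.0824, Dnajb1 -0.0855, Hsp90aa1 -0.0195, Hsp90ab1 -0.0665, Hspa4 -0.0283 and Hspe1 -0.0183. With protein-coding genes only they were Cct5 -0.0682, Cct7 -0.0767, Dnajb1 -0.0799, Hsp90aa1 -0.0138, Hsp90ab1 -0.0608, Hspa4 -0.0227 and Hspe1 -0.0126. Cct7 was -0.0426 after the GC correction, with or without the block. Signs that turned in an omission ran as follows: Cct3 from -0.10 to 0.0413, Cct5 from -0.0118 to 0.0507, Dnajb1 from -0.0939 to 0.11, Dnajb6 from -0.055 to 0.35, Hsf1 from -0.47 to 0.14, Hspa4 from -0.0275 to 0.16, Hspd1 from -0.0677 to 0.33 and Hspe1 from -0.0876 to 0.24. edgeR was not run because the table holds FPKM and no counts. Low reads limit Hspa1a, Hspb9 and the other members under the filter.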

Other observations

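Of the 5 endoplasmic reticulum genes that the rule leaves out by name none passed, 4 were higher in both cKO libraries (all tested genes: 27.2%), and the median log2 fold change was 0.13. Hspa5, which encodes BiP, had 460.4 and 431 FPKM in WT and 555 and 557 FPKM in cKO (log2 fold change 0.32, limma, adjusted p = 0.19). Dnajb9, its J protein partner, had 12.6 and 11.5 FPKM in WT and 22.0 and 16.5 FPKM in cKO (0.63, limma, adjusted p = 0.119). Dnajc3 had 26.0 and 26.4 FPKM in WT and 30.7 and 27.2 FPKM in cKO. Hsp90b1, outside the rule by its symbol, had 129 and 130 FPKM in WT and 179 and 148 FPKM in cKO (0.33, limma, adjusted p = 0.247).

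The table lists 13 processed pseudogenes whose symbols match the rule, 9 of them at 0 in every library. Hspd1-ps3 had 11.5 and 14.1 FPKM in WT and 15.7 and 16.6 FPKM in cKO (log2 fold change 0.33, limma, adjusted p = 0.238). Dnajc19-ps had 4.22 and 4.92 FPKM in WT and 5.89 and 4.55 FPKM in cKO. Dnajc19 itself had 5.81 and 5.97 FPKM in WT and 7.49 and 5.20 FPKM in cKO.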
